A study of Pyrus pyrifolia with 6 samples.

Results

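Mitochondria burn the products of sugar and acid breakdown to make ATP, and 48 of the 4291 genes listed as different between boron-treated and control pear pulp carried names of mitochondrial or respiratory proteins. The members were taken by name alone. Their descriptions contain a word for mitochondria, alternative oxidase, cytochrome c oxidase, NADH dehydrogenase or ubiquinol, and do not name citrate synthase, a pentatricopeptide repeat, a heat shock protein, a chaperone, a superoxide enzyme or the chloroplast. A further 12 listed genes matched the first words and were removed by the second. Fruit of the cultivar Akibae (Pyrus pyrifolia), grown in a university orchard, had been given either boron or a control treatment, and messenger RNA was sequenced from the pulp. Each group had 3 libraries, and the labels give no dose, form of boron, age of the fruit or kind of control, nor whether the libraries came from separate fruits or trees. P-values therefore measure only the spread between these libraries, which may be technical.

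In a plant mitochondrion, electrons from NADH usually enter the respiratory chain at complex I, pass through ubiquinone to complexes III and IV, and reach oxygen, while protons are pumped out to drive ATP synthase. Plants also keep bypasses that pump no protons: alternative NAD(P)H dehydrogenases feed ubiquinone beside complex I, and alternative oxidase (ubiquinol oxidase) passes electrons from ubiquinol straight to oxygen. In fruit pulp, mitochondria also oxidise pyruvate and organic acids and break down amino acids.

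Boron pulp had less mRNA of the 2 listed complex I subunits and of the gamma subunit of ATP synthase. It had more of the 2 internal alternative NAD(P)H dehydrogenases with the authors' scaling, a direction that turned with 2 of the 3 other scalings. The 3 alternative oxidase genes exchanged places, 1 falling 6.33-fold and 2 rising 7.77-fold and 10.8-fold with the authors' scaling; the rises were smaller with the 3 others. The 4 members of the pyruvate dehydrogenase complex and its kinases were each called lower in boron pulp. So were the 4 mitochondrial import proteins, beside 26.2% of the listed genes. For 1 import gene, however, the groups overlapped and the call was lost in 5 alternatives. Among the other groups, a dicarboxylate carrier named uncoupling protein 5 fell 9.75-fold and an aminotransferase that acts on glyoxylate fell 55.5-fold, while a subunit of the glycine cleavage system was close to 0 in control pulp.

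The values are normalized counts (the deposited gene counts, brought by the authors to a common depth with a size factor for each library), and means are given with the SD over n = 3 libraries. The libraries held 1914312 to 2056668 reads in the listed genes. Fold changes are log2 values of boron over control from limma on log2(normalized count + 1), fitted over the 4291 listed genes with Benjamini-Hochberg adjustment, and given with their SE; on this scale the change of low genes is understated. A gene was called at an adjusted p below 0.05. Folds written as "-fold" are ratios of group means of normalized counts, apart from that of CBSX3 (LOC103955391), which is set against a floor of 3 reads.

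Of the 48 members, 22 were called higher and 26 lower in boron pulp, 45.8% and 54.2%, where 73.0% of the listed genes were called higher and 26.2% lower. The largest adjusted p of a member was 0.0276. That 48 of 48 passed says little, since the table holds only genes that the authors had called on these libraries, and 99.2% of the listed genes passed. The members had a median log2 fold change of -1.03, against 1.62 over the whole table; in the authors' deposited table no absolute log2 fold change is below 1.00064, so a median near that gap moves with a few genes. The groups did not overlap in 45 members (93.8%; 97.7% of the listed genes). The exceptions include a calcium-binding carrier (LOC103950771) and an import protein (LOC103937753), chosen here for that reason. The members' normalized counts summed to 14206 to 14624 in the boron libraries and to 21946 to 23254 in the control libraries.

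**Figure D1:**
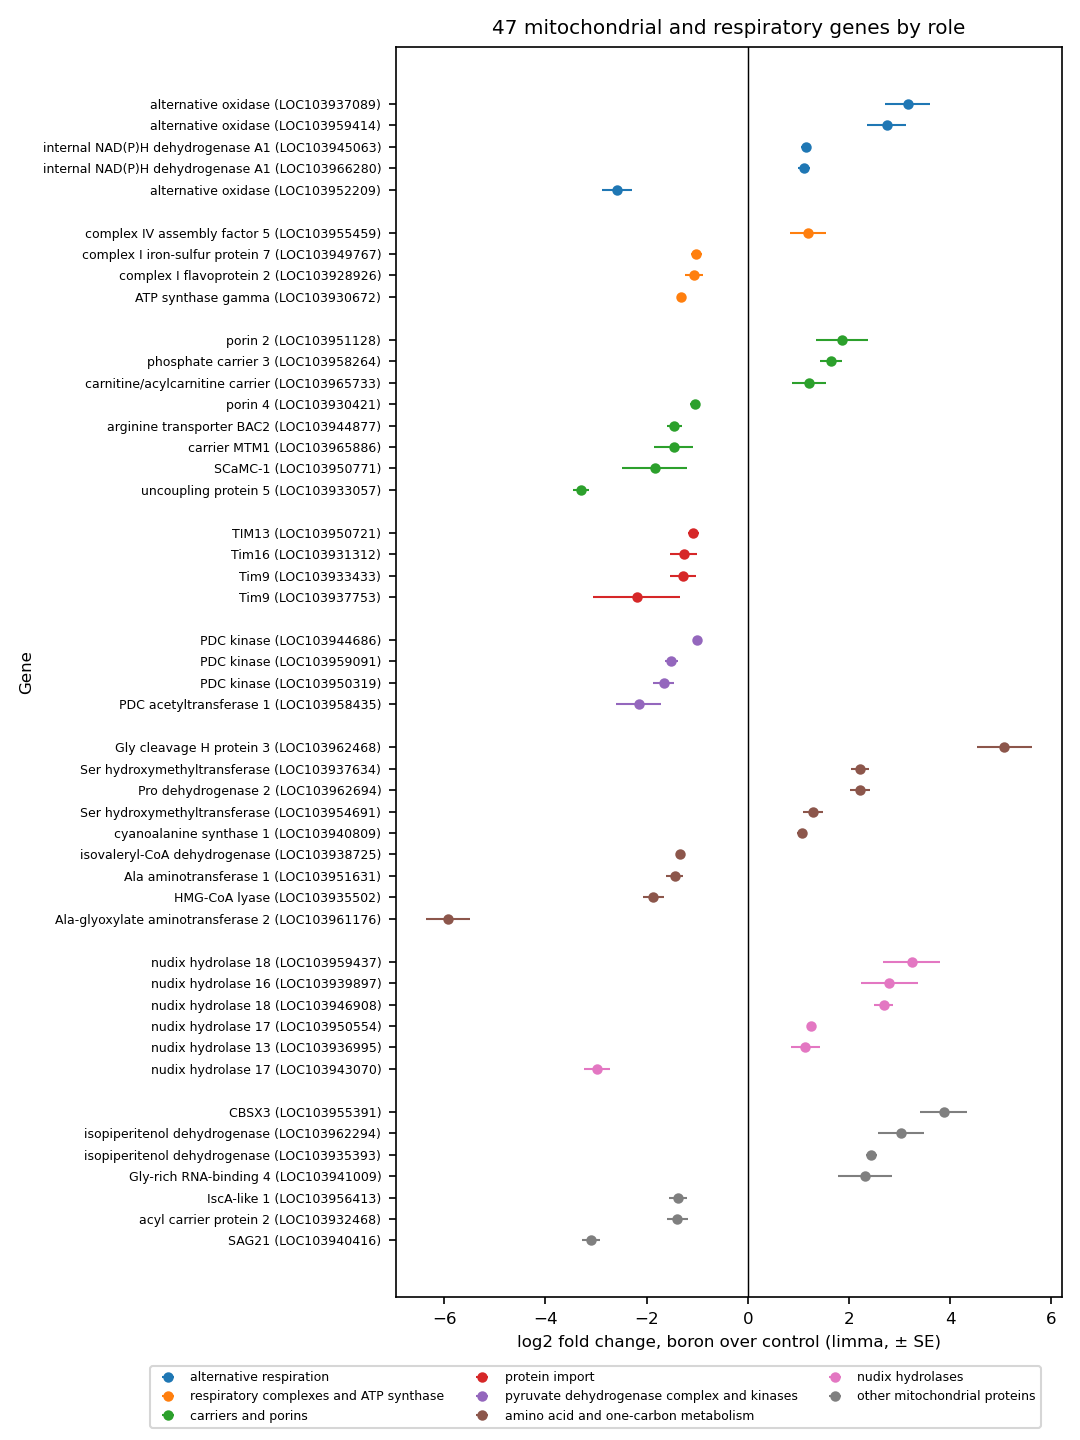
Log2 fold change of 47 of the 48 genes (horizontal axis, boron over control, limma, bars ± SE, hidden by the point where short), grouped and coloured by role. The pyruvate dehydrogenase and import groups lie wholly to the left of 0, and the other groups hold genes on both sides. Of the listed genes, 26.2% were called lower.

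Abundance went with direction among the listed genes, and the members were more abundant than most, with a median of 140.0 normalized counts over the 6 libraries against 60.5 over the listed genes. In the class of 200 to 1000 normalized counts, 5 of 16 members were called higher (31.2%), beside 63.5% of the 825 listed genes in that class. In the class of 50 to 200, 4 of 11 members were higher (36.4%, beside 74.4%). Below 50 the shares were 75% of 16 members and 81.2% of the listed genes, and at 1000 and over they were 20% of 5 members and 42.8%. The members' share was the lower of the pair in each of the 4 classes, but below 50 the shares were close, and at 1000 and over there were only 5 members. These are descriptions and were not tested.

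**Figure D2:**
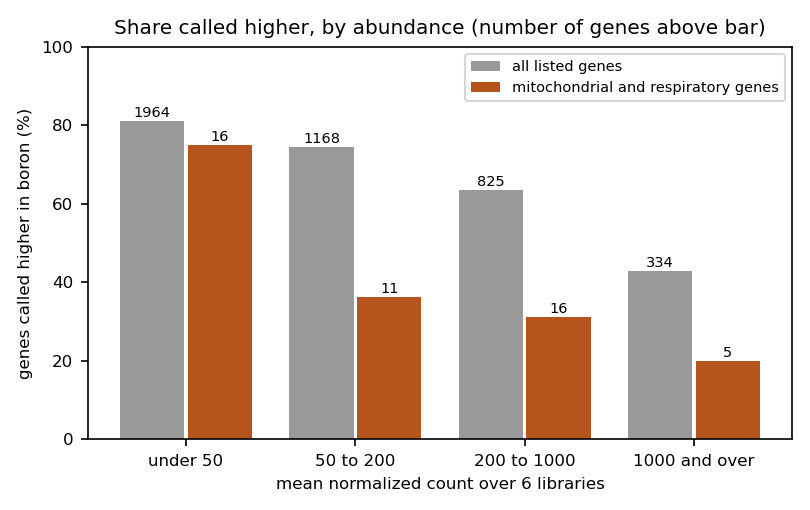
Share of genes called higher in boron pulp (vertical axis, %) in 4 classes of mean normalized count, for the listed genes (grey) and the mitochondrial and respiratory genes (orange), with the number of genes above each bar. The orange bar is the lower one in every class, with 31.2% against 63.5% in the class of 200 to 1000. Below 50 the bars are close (75% and 81.2%), and the orange bar at 1000 and over rests on 5 genes.

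How the libraries are scaled bears on the rises. The authors' size factors centre the wider set of genes: in the authors' deposited table of 42194 genes, each with a signal-to-noise score (how far apart the groups lie, relative to their SDs), 30584 genes had a score other than 0, with a median of 0.0782 and 54.0% above 0. Scalings computed over the listed genes alone take most of those selected genes to be unchanged. They moved the median over the whole table by -1.40 (TMM), -1.35 (DESeq2-type) and -1.25 (quantile). With them 11, 11 and 14 members were higher and 30, 28 and 26 lower (26.8%, 28.2% and 35.0% higher among members that passed), beside 53.6%, 55.0% and 57.1% of the listed genes that passed.

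Alternative oxidase takes electrons from ubiquinol without building a proton gradient, and the table's protein family column gives the AOX family for the 3 genes so described and for no other listed gene. LOC103952209 (scaffold NW_008988128.1, 420692 to 422569, plus strand) had 16.5, 16.2 and 10.8 normalized counts in boron libraries 1 to 3, and 111, 77.0 and 87.5 in control libraries 1 to 3. The groups were far apart, and the fall was -2.59 ± 0.29 (limma, adjusted p = 1.01e-05). LOC103959414 (scaffold NW_008988215.1, 496700 to 498837, plus strand) went the other way, with 37.8, 40.6 and 58.9 in boron against 4.99, 7.29 and 5.4 in control. LOC103937089 (scaffold NW_008988865.1, 78789 to 80884, minus strand) had 36.8, 42.4 and 33.4 against 1.99, 5.20 and 3.24. Both were well above control in each boron library, with log2 fold changes of 2.75 ± 0.38 and 3.16 ± 0.45 (limma, adjusted p = 5.44e-05 and 5.85e-05), and these directions held with the 3 other scalings. The rises were smaller there, at 1.42, 1.46 and 1.15 for LOC103959414 and 1.89, 1.93 and 1.41 for LOC103937089 with TMM, DESeq2-type and quantile scaling, and the fall of LOC103952209 was larger, at -3.96, -3.92 and -4.18.

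Within a library the share of each alternative oxidase gene does not depend on scaling. Per kilobase of gene length, LOC103952209 made up 94.9%, 87.9% and 92.2% of the alternative oxidase level in the control libraries, and 20.5%, 18.6% and 12.1% in the boron libraries. The summed level of the 3 genes was 67.8 ± 3.73 normalized counts per kilobase in boron and 79.0 ± 11.9 in control, and the ranges of 63.6 to 70.8 and 69.5 to 92.4 overlapped. The identity of the most abundant gene changed between groups, whereas with the authors' scaling a difference in the sum was within the spread. Unlike the shares, the sum moves with the scaling. The log2 fold changes of all 3 genes were lower under the 3 other scalings. Whether the sum differed between groups there was not tested. Genes of this family are alike in sequence, and reads may have been split or shared between copies.

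The internal alternative NAD(P)H dehydrogenases oxidise NADH on the matrix side in place of complex I. LOC103945063, described as A1-like, had 1046, 877 and 941 normalized counts in boron libraries against 409.8, 471 and 402 in control. The other A1-like gene, LOC103966280, had 607, 636 and 558 against 295, 295 and 246. Each boron value of both genes lay above each control value, and the log2 fold changes were 1.16 ± 0.10 and 1.11 ± 0.11 (limma, adjusted p = 1.71e-06 and 4.97e-06). Under the TMM and DESeq2-type scalings both turned to falls (-0.28 and -0.33, and -0.24 and -0.28), while with quantile normalization they stayed higher. The fall of LOC103945063 with DESeq2-type scaling did not pass the threshold (limma, adjusted p = 0.0684).

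Complex I, the proton-pumping NADH dehydrogenase, was represented by a pair of core subunits. Iron-sulfur protein 7 (LOC103949767), part of the path that hands electrons to ubiquinone, had 459, 418 and 356 normalized counts in boron libraries and 894, 794 and 797 in control. Flavoprotein 2 (LOC103928926), which sits at the NADH entry side, had 202, 313 and 189 against 534, 471 and 432. Both were lower in every boron library, with log2 fold changes of -1.01 ± 0.11 and -1.06 ± 0.18 (limma, adjusted p = 9.06e-06 and 0.000241). The gamma subunit of ATP synthase (LOC103930672), the central shaft of the enzyme, fell more, from 1321, 1238 and 1225 in control to 571, 472 and 484 in boron (-1.31 ± 0.09, adjusted p = 3.33e-07). Cytochrome c oxidase assembly factor 5 (LOC103955459), needed in human cells to build complex IV, was low in both groups, with 47.5, 34.3 and 43.2 in boron and 27.9, 14.6 and 13 in control (1.20 ± 0.36, adjusted p = 0.00786). Its direction turned with each of the other 3 scalings (-0.19, -0.15 and -0.20), and none of those values passed the threshold. The 3 falls held with each, which hardly tests them, as those scalings move the median of the listed genes down.

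**Figure D3:**
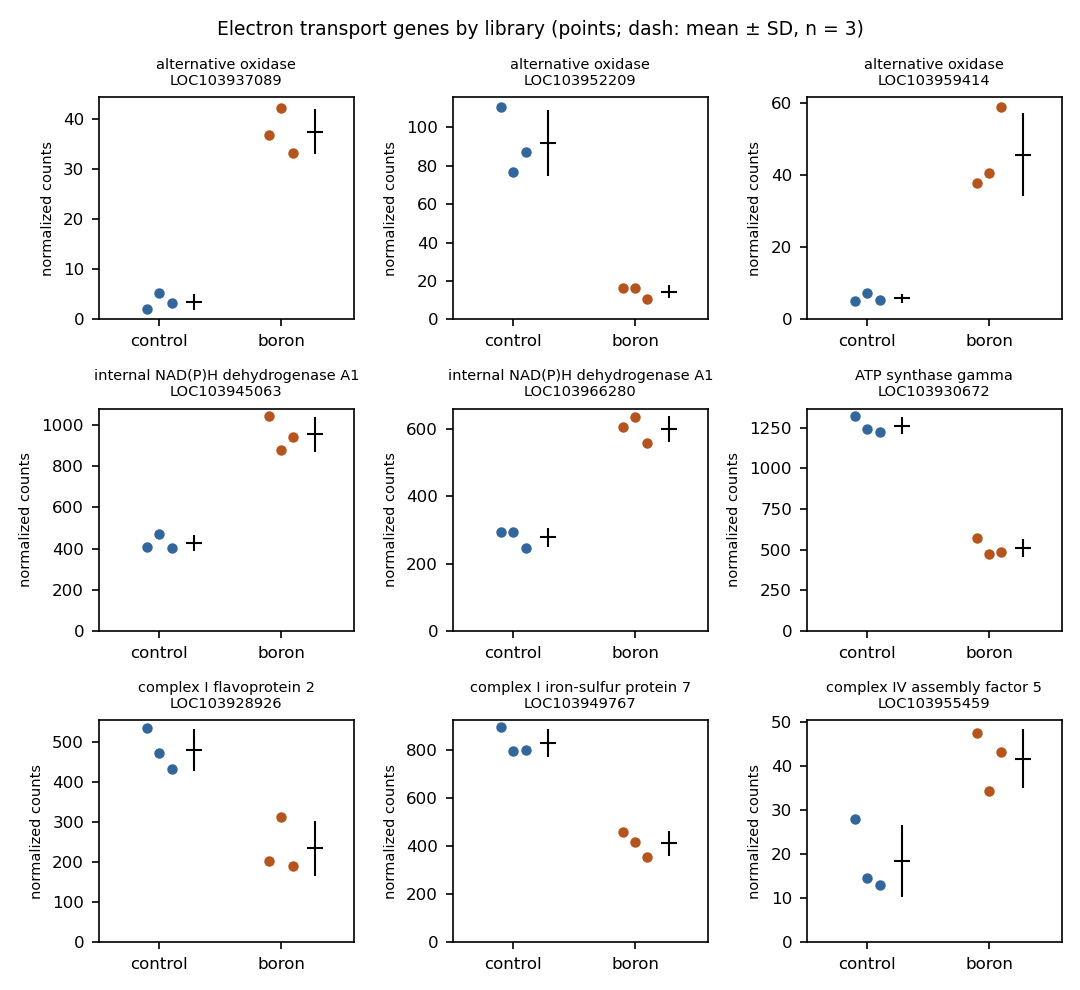
Normalized counts in each library (points) with mean ± SD (dash and bar, n = 3) for the 9 genes of alternative respiration, complexes and ATP synthase; each panel has its own axis from 0. The groups stand apart in each panel, as they do for 97.7% of the listed genes, with ATP synthase gamma at 1225 to 1321 in control and 472 to 571 in boron.

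Set against each other inside each library, which removes the scaling, the 2 kinds of NADH dehydrogenase lay closer together in boron pulp, with the complex I subunits the higher in all 6 libraries. The summed level per kilobase of the internal dehydrogenases, divided by that of the 2 complex I subunits, was 0.179, 0.221 and 0.191 in control libraries and 0.892, 0.768 and 0.997 in boron libraries. The ratio was chosen after the values had been seen, and complex I has many more subunits than the 2 listed here.

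**Figure D4:**
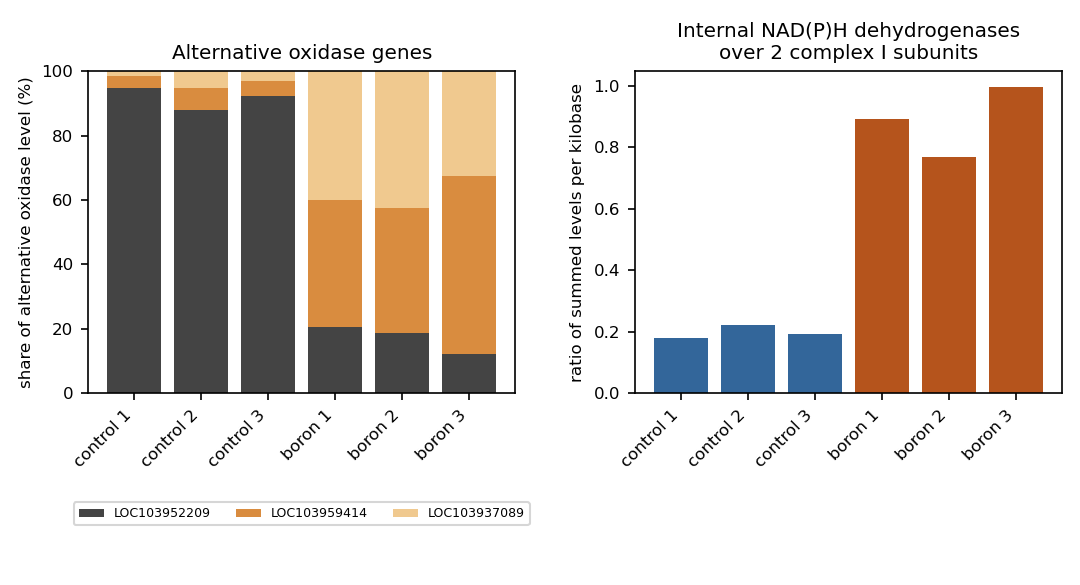
Left, share of each of the 3 alternative oxidase genes in their summed level per kilobase (%), by library; right, the summed level per kilobase of the internal NAD(P)H dehydrogenases over that of 2 complex I subunits. LOC103952209 holds 87.9% to 94.9% in control and 12.1% to 20.5% in boron, and the ratio is 0.179 to 0.221 in control and 0.768 to 0.997 in boron.

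Pyruvate enters the mitochondrial acid cycle through the pyruvate dehydrogenase complex, and a dedicated kinase switches that complex off by phosphorylation. The 3 kinase genes were called lower in boron pulp, beside 26.2% of the listed genes. LOC103944686 had 847, 865 and 859 normalized counts in boron libraries and 1669, 1702 and 1779 in control, with little spread in either group (-1.0 ± 0.07, limma, adjusted p = 2.58e-07). LOC103959091 had 475, 338 and 464 against 1234, 1241 and 1125, and LOC103950319 had 149, 149.7 and 246 against 703, 540.1 and 466. Their log2 fold changes were -1.51 ± 0.13 and -1.66 ± 0.21 (limma, adjusted p = 1.23e-06 and 2.63e-05). Summed per kilobase, the level of the 3 kinases was 925 ± 67.2 in boron and 2194 ± 72.5 in control.

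The complex itself was represented by acetyltransferase component 1 (LOC103958435), the core enzyme that forms acetyl-CoA. It had 17.4, 41.5 and 22.6 normalized counts in boron libraries and 57.8, 133 and 207 in control, so the control libraries spread widely, and the fall was -2.16 ± 0.45 (limma, adjusted p = 0.000909). The 4 falls of this group held with each of the 3 other scalings. This hardly tests them, as those scalings move the median of the listed genes down.

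Amino acid and one-carbon enzymes numbered 5 rises (55.6%, beside 73.0% of the listed genes) and 4 falls. Alanine-glyoxylate aminotransferase 2 homolog 2 (LOC103961176; scaffold NW_008988245.1, 99780 to 105122, minus strand), which moves the amino group of alanine to glyoxylate, had 503, 484 and 460.1 normalized counts in control libraries and 3.88, 4.51 and 17.7 in boron libraries. The log2 fold change was -5.93 ± 0.43 (limma, adjusted p = 3.71e-07), and its score of -4.54 was the 22nd lowest of the 42194 genes in the authors' deposited table. Alanine aminotransferase 1 (LOC103951631), which links alanine to pyruvate, fell as well, from 324 ± 5.24 to 120.4 ± 28.3.

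Leucine is broken down in mitochondria, and enzymes of an early and of the last step of that route were lower in boron. Isovaleryl-CoA dehydrogenase (LOC103938725), which passes electrons on towards ubiquinone, had 2088, 2121 and 2393 normalized counts in boron against 5739.6, 5429.5 and 5416 in control (-1.33 ± 0.07, limma, adjusted p = 2.71e-08). It was the member with the highest level per kilobase in control pulp, at 3248 ± 108. Hydroxymethylglutaryl-CoA lyase (LOC103935502), which splits the last intermediate, had 38.8, 42.4 and 46.1 against 196, 138 and 141 (-1.86 ± 0.21, adjusted p = 1.01e-05).

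Glycine and serine are interconverted in mitochondria by the glycine cleavage system and serine hydroxymethyltransferase, a pair best known from photorespiration in leaves. Glycine cleavage H protein 3 (LOC103962468), the lipoyl-carrying shuttle of the system, had 40.7, 47.8 and 55.0 normalized counts in boron and 1.99, 0 and 0 in control. With 151 reads against 2, the ratio was 69.0 with an exact 95% counting interval of 18.8 to 575, which covers counting error only. Of the serine hydroxymethyltransferases, LOC103937634 rose from 55.5 ± 10.7 to 260.3 ± 16.5 (2.22 ± 0.18, limma, adjusted p = 8.73e-07). LOC103954691 rose from 68.4 ± 10.4 to 169 ± 23.4, but its fold change turned to -0.13 and -0.090 with TMM and DESeq2-type scaling and it did not pass with quantile normalization.

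Chlorophyll-binding and photosystem genes moved in the same direction in these libraries. Of 53 listed, 52 were called higher (98.1%, beside 73.0% of the listed genes), and they summed to 11547 to 12428 normalized counts in boron libraries against 2074 to 2104 in control; 6 of them had no read in any control library. In bulk pulp, more green cells and more of this RNA per cell cannot be told apart, and the part of green tissue in the rises of the glycine and serine genes was not tested.

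Proline dehydrogenase 2 (LOC103962694), which feeds electrons from proline into the chain, had 418, 463 and 446 normalized counts in boron and 69.8, 124 and 97.2 in control, a rise of 2.21 ± 0.19 (limma, adjusted p = 1.48e-06). L-3-cyanoalanine synthase 1 (LOC103940809) disposes of cyanide, a by-product of ethylene synthesis and an inhibitor of complex IV. It had 683, 661 and 664 against 330.1, 339 and 284 (1.08 ± 0.10, adjusted p = 2.96e-06). That direction turned with TMM and DESeq2-type scaling (-0.36 and -0.31), and with quantile normalization it did not.

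**Figure D5:**
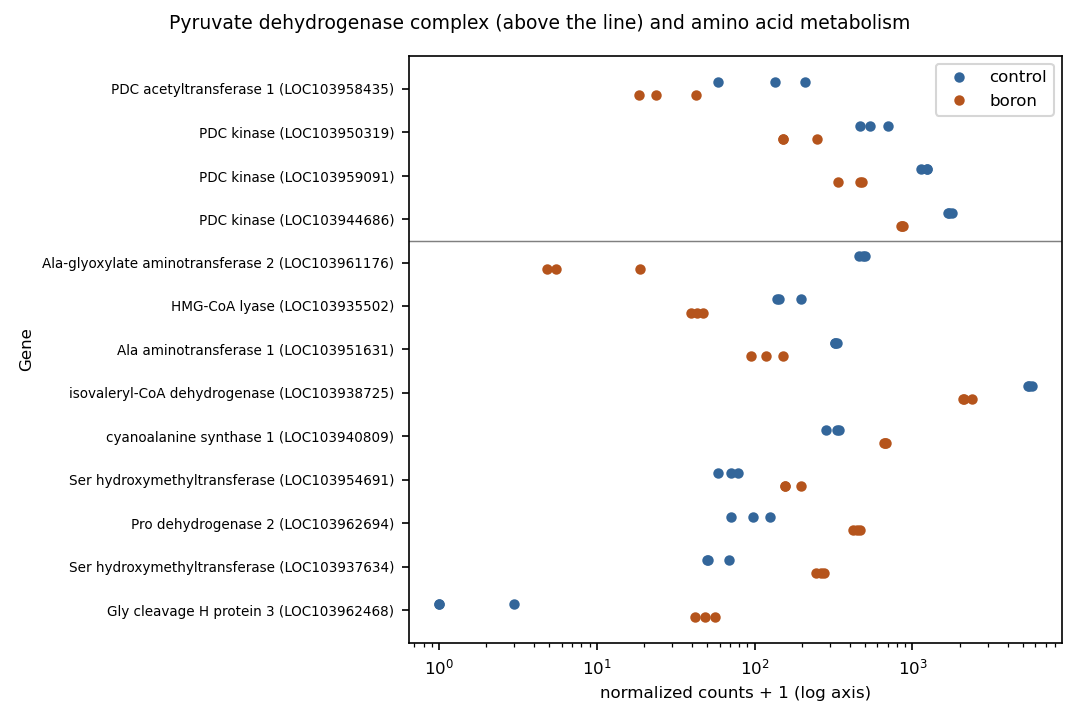
Normalized counts plus 1 in each library (log axis; blue, control; orange, boron) for the 4 genes of the pyruvate dehydrogenase complex and kinases, above the line, and the 9 genes of amino acid and one-carbon metabolism. The groups do not overlap for any of the 13 genes, nor for 97.7% of the listed genes. The widest gaps are at the glyoxylate aminotransferase (3.88 to 17.7 against 460.1 to 503) and at glycine cleavage H protein 3.

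Carriers bring substrates across the inner membrane and porins form the pores of the outer one. Of these 8 genes, 3 rose (37.5%, beside 73.0% of the listed genes) and 5 fell. Uncoupling protein 5 (LOC103933057), which in Arabidopsis carries dicarboxylates such as malate, had 87.2, 64.0 and 101 normalized counts in boron against 797, 829 and 833 in control (-3.29 ± 0.16, limma, adjusted p = 1.92e-08). The basic amino acid carrier BAC2 (LOC103944877), which in Arabidopsis moves arginine and ornithine, fell from 441 ± 48.7 to 162 ± 24.8. The porins parted: the abundant porin 4 (LOC103930421) fell from 2304 ± 246 to 1113 ± 114, and the scarce porin 2 (LOC103951128) rose from 4.13 ± 1.96 to 17.6 ± 6.46. The 5 falls held with the 3 other scalings, which move the median of the listed genes down and so hardly test most falls. Quantile normalization left that of the abundant porin 4 about as it was (-1.03, beside -1.05 with the authors' scaling).

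Phosphate carrier 3 (LOC103958264), which supplies the phosphate for ATP synthesis, rose from 48.4 ± 11.5 to 151 ± 17.1 (1.64 ± 0.22, limma, adjusted p = 3.75e-05). The carnitine/acylcarnitine carrier-like gene (LOC103965733) rose from 16.9 ± 3.4 to 40.5 ± 8.92. None of the 3 rises among carriers and porins was called with TMM or DESeq2-type scaling, and quantile normalization kept that of the phosphate carrier alone and turned those of porin 2 (-0.15) and the acylcarnitine carrier (-0.23). MTM1 (LOC103965886), needed in yeast to bring manganese to mitochondrial superoxide dismutase, fell from 38.6 ± 8.77 to 13.8 ± 5.22. The calcium-binding carrier SCaMC-1 (LOC103950771), of a family that exchanges ATP-magnesium for phosphate, had 8.72, 5.41 and 7.85 in boron and 61.8, 40.6 and 8.64 in control, where control library 3 lay beside the boron values. Its call (-1.84 ± 0.64, adjusted p = 0.0167) was lost without boron library 2 or control library 1 or 2 (adjusted p = 0.0589, 0.0776 and 0.0673).

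Proteins made in the cytosol enter mitochondria through translocases, and small TIM proteins guide them across the space between the membranes. The 4 genes of this group were called lower in boron, beside 26.2% of all listed genes. The direction held with each other scaling, but those scalings move the median of the listed genes down and hardly test a fall. TIM13 (LOC103950721) had 766, 733 and 864 normalized counts in boron libraries against 1935, 1483 and 1604 in control (-1.08 ± 0.11, limma, adjusted p = 4.18e-06), and at 2653 ± 371 per kilobase it had the second highest level of the members in control pulp. A Tim9 gene (LOC103933433), whose product works in a similar small complex, fell from 104 ± 3.85 to 43.7 ± 14.2. Tim16 (LOC103931312), part of the motor that pulls proteins into the matrix, fell from 80.3 ± 7.60 to 33.5 ± 8.88. The second Tim9 gene (LOC103937753) had 8.72, 1.80 and 2.94 in boron and 15, 6.24 and 88.6 in control, so control library 3 set the mean. Its call (-2.20 ± 0.86, adjusted p = 0.0276) was lost without that library, with a log2 fold change of -1.18 (adjusted p = 0.108), and without boron library 2 or 3 (0.107 and 0.0761).

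Nudix hydrolases cleave nucleoside diphosphates linked to another group, such as damaged nucleotides and NADH, and 5 of 6 rose (83.3%, beside 73.0% of the listed genes); with TMM, DESeq2-type and quantile scaling 3, 3 and 2 of the 6 did. The genes named nudix hydrolase 17 moved apart: LOC103950554 had 1845, 1858 and 1788 normalized counts in boron libraries and 751, 801 and 744 in control (1.26 ± 0.07, limma, adjusted p = 5.84e-08), and LOC103943070 had 40.7, 45.1 and 21.6 against 256, 284 and 292 (-2.98 ± 0.26, adjusted p = 1.53e-06). Inside each library, LOC103943070 made up 29.3% to 32.2% of their summed level per kilobase in control and 1.44% to 2.86% in boron. With TMM and DESeq2-type scaling the rise of LOC103950554 turned to -0.18 and -0.14. At 1460 ± 29.7 normalized counts per kilobase it had the highest level of the members in boron pulp.

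Nudix hydrolase 18 (LOC103946908) rose from 43.4 ± 7.92 to 283 ± 20.5 normalized counts (2.69 ± 0.19, limma, adjusted p = 2.6e-07), a rise that held with the other scalings. A second gene of that name (LOC103959437) had 42 reads in boron libraries and 2 in control, a ratio of 19.2 (exact 95% interval 4.995 to 164). Nudix hydrolase 16 (LOC103939897) had 31 reads and 2, a ratio of 14.2 (3.61 to 122). Nudix hydrolase 13 (LOC103936995) rose from 29.0 ± 9.85 to 62.9 ± 2.97, and its fold change was -0.26, -0.22 and -0.044 with the 3 other scalings. Quantile normalization ended the calls of the 2 scarce genes.

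Of the other 8 members, 4 rose (50%, beside 73.0% of the listed genes) and 4 fell. SENESCENCE-ASSOCIATED GENE 21 (LOC103940416), a small stress-induced protein in Arabidopsis, had 44.6, 45.1 and 60.8 normalized counts in boron against 392, 455 and 457 in control (-3.10 ± 0.17, limma, adjusted p = 4.66e-08). An IscA-like iron-sulfur assembly protein (LOC103956413), of the kind that supplies clusters to respiratory enzymes, fell from 865 ± 249 to 327 ± 46.4, with control library 1 at 1149 above the others. Acyl carrier protein 2 (LOC103932468), on which mitochondria build the lipoate precursor, fell from 179 ± 30.4 to 67.6 ± 12.5.

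Both genes similar to (-)-isopiperitenol/(-)-carveol dehydrogenase, an enzyme of monoterpene synthesis in mint, rose. LOC103935393 had 929, 876 and 891 normalized counts in boron against 184, 158 and 152 in control (2.44 ± 0.11, limma, adjusted p = 9.88e-09), and LOC103962294 rose from 4.8 ± 2.29 to 44.0 ± 9.86. CBSX3 (LOC103955391), which in Arabidopsis acts on a mitochondrial thioredoxin, had 48 reads in boron libraries and 0 in control, at least 14.6-fold higher against a floor of 3 reads over the control group. Glycine-rich RNA-binding protein 4 (LOC103941009) had 81.4, 27.9 and 116 against 17, 15.6 and 6.48 (2.32 ± 0.53, adjusted p = 0.00162), and that call was lost with the 3 other scalings.

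Other genes, taken by name with words for pyruvate and acid cycle enzymes, fermentation, superoxide dismutase, cytochrome c, ATP synthase and pentatricopeptide repeats, numbered 32. Of these, 21 rose (65.6%, beside 73.0% of the listed genes) and 11 fell. The words also caught chloroplast proteins and a probable cinnamyl alcohol dehydrogenase, so the share does not describe mitochondrial pathways alone. Of 17 pentatricopeptide repeat proteins, which process organelle RNA, 14 rose (82.4%, beside 73.0% of the listed genes). On the side of pyruvate, pyruvate decarboxylase 2 (LOC103965128), the first enzyme of alcohol fermentation, fell from 33432 ± 1443 to 4697 ± 353 normalized counts, and decarboxylase 1 (LOC103944123) from 17767 ± 261 to 4502 ± 73.3. The chloroplast form of the acetyltransferase of pyruvate dehydrogenase (LOC103947462, component 4) rose from 13.3 ± 8.11 to 123 ± 5.25, opposite to the mitochondrial component. The chloroplast gamma chains of ATP synthase (LOC103948177 and LOC103950613) likewise rose, to 86.0 ± 26.3 from 2.77 ± 2.40 and to 127 ± 4.48 from 3.78 ± 1.04, where the mitochondrial gamma subunit fell. NADP-isocitrate dehydrogenase (LOC103926949) fell from 2213 ± 24.3 to 799 ± 81.7.

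Markers of further tissues were taken by words in the descriptions from the same table of called genes, 73.0% of which were higher. Whether these genes are particular to those tissues in pear was not tested. Of 15 listed peel markers, mostly esterases of the GDSL type, 13 were higher (86.7%) and 1 had no read in control, and they summed to 3113 to 3502 normalized counts in boron libraries and 1281 to 1508 in control. The 5 vascular markers were higher (580 to 666 against 144 to 163), and the 6 seed markers, 5 of them higher (83.3%), summed to 1905 to 2044 against 2309 to 2590. These sums, and that of the chlorophyll-binding and photosystem genes, depend on the authors' scaling and were not computed with the others. The part of these tissues in the members' changes was not tested. No member overlapped another listed gene on its scaffold.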

How the data were processed

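Messenger RNA of pear pulp was compared between 3 boron and 3 control libraries. Libraries were made with an NEBNext Ultra kit, per the labels' protocols, and HISAT2 is the tool named in the submitters' processing notes; its version, the read counter, its use of strand and the genome build are each not given in the sources used here. Genes are placed as the deposited table gives them. The library values (signal: normalized counts) are gene counts brought by the authors to a common depth with a size factor for each library: every value of a library was a whole multiple of 1 step (100% within 1e-04, largest deviation 5.48e-06), which gave back the reads. The table's group means of this signal, its log2 fold changes and its p-values are the authors', per the file headers; it lists 4291 genes, with an adjusted p-value of at most 0.0499. Gene length, a value of another kind, is as deposited. The second table's score, deposited for 42194 genes, was rebuilt from the library values within 6.1e-07 for 4070 genes, with each SD at least 0.2 of its mean.

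In R 4.3.3, limma 3.58.1 with its trend and robust settings was fitted to log2(normalized count + 1) of the listed genes, two-sided, without a block or filter. The design had named this test; edgeR 4.0.16 (quasi-likelihood test on the recovered reads) was an alternative, as were another pseudocount, scaling, a filter, the plain limma fit, the replicate block and each library left out. The scripts were tested on simulated data. The members and lists were chosen with earlier results of these data known. Roles follow fixed patterns, but import proteins, the acyl carrier protein, nudix hydrolases and pyruvate dehydrogenase genes were set apart after the names were seen. The rule for named genes (all electron transport members; elsewhere the 3 largest changes and 2 highest levels per list, and the 5 largest rises and falls) took 25 members; the others were added to account for the rest. The values of 1 member are not reported here; it stays in every count and sum. Intervals are exact binomial ones on the reads, converted to ratios. Sequences are not shown, as no reference was used here.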

Additional observations from a re-analysis of the deposited data

How the results depend on the processing

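In the 15 alternatives, 33 of the 48 members kept their direction and their call. The counts of higher and lower members, 22 and 26, were the same with edgeR on the recovered reads and with a pseudocount of 0.5. Leaving out each library in turn gave 22 higher members throughout and 24 to 26 lower ones, with a median log2 fold change of -1.06 to -0.94. With a pseudocount of 5 or without the trend and robust options, the 25 lower members lacked Tim9 LOC103937753 (log2 fold change -1.61 and -2.20, adjusted p = 0.0896 and 0.0733). A minimum mean of 10 normalized counts left 44 members, 19 higher and 25 lower. TMM, DESeq2-type and quantile scaling over the listed genes gave 11, 11 and 14 higher members and median log2 fold changes of -2.47, -2.42 and -1.11. They shift the median of the listed genes down, though with quantile scaling not every gene moved down.

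With TMM and DESeq2-type scaling, in that order, the fold change turned for LOC103945063 (-0.28, -0.24), LOC103966280 (-0.33, -0.28), LOC103940809 (-0.36, -0.31), LOC103954691 (-0.13, -0.090) and LOC103950554 (-0.18, -0.14). With TMM, DESeq2-type and quantile scaling it turned for LOC103955459 (-0.19, -0.15, -0.20), LOC103965733 (-0.18, -0.13, -0.23) and LOC103936995 (-0.26, -0.22, -0.044), and with quantile scaling alone for porin 2 LOC103951128 (-0.15). None of these latter values passed the threshold. Among the genes named before them, LOC103966280 and LOC103940809 passed as lower with both scalings. LOC103945063 and LOC103950554 did so with TMM alone, and LOC103954691 with neither.

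The replicate block gave 22 higher and 26 lower members (median -1.03) and changed no member's call. Same-numbered libraries did not deviate together across the listed genes (correlations of -0.013, 0.026 and -0.039), so the numbers were not taken as pairs, and not every library correlated best with its own number. Members with few reads, such as CBSX3, nudix hydrolases 16 and 18 and glycine cleavage H protein 3, have fold changes that depend on the pseudocount. The labels give no batch.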

Other observations

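The mitochondrial carrier protein family (Mito_carr in the deposited table) held 9 listed genes, of which 4 are members by name and 5 are not. Of the 9, 6 were called higher (66.7%) and 3 lower, beside 73.0% and 26.2% of the listed genes. The 5 others, looked up after the members' values had been seen, include a mitoferrin-like gene (LOC103965101), of a kind that brings iron into mitochondria, which rose from 242 ± 26.9 to 504 ± 34.3 normalized counts (log2 fold change 1.06 ± 0.12). A gene similar to the Graves disease carrier protein (LOC103927526) rose from 54.6 ± 10.1 to 154 ± 23.7. The genes similar to solute carrier family 25 member 44 parted: LOC103952534 rose from 103 ± 23.4 to 257 ± 26.9, and LOC103961242 fell from 64.6 ± 5.43 to 24.5 ± 10.1. A peroxisomal carrier for nicotinamide adenine dinucleotide (LOC103931755) rose from 14.4 ± 7.02 to 47.1 ± 22.0. The values and calls of these 9 genes are given here with the authors' scaling alone. A member with a rise of 1.16 (LOC103945063) turned to a fall with TMM and DESeq2-type scaling. Larger rises of members, of 1.64 (LOC103958264) and 2.32 (LOC103941009), lost their calls with both scalings, while one of 2.21 (LOC103962694) kept its call. The 6 rises among these 9 genes may therefore depend on the scaling.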
